A study of Homo sapiens with 6 samples.

Results

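Loci that carry a LINC symbol, the placeholder name given to long intergenic RNAs without a known protein, were followed in HAP1 cells with and without DEGS1. The deposited count table was searched for symbols made of LINC and digits only, which gave 38 of 35238 rows. The members are the 20 rows selected on their raw counts, with 100 or more summed over the 6 libraries. The sum ignores genotype, so this threshold selects by level and not by change. The choice of these loci as a subject was made with earlier results of these data known. HAP1 is an established, near-haploid human line derived from a chronic myeloid leukemia line. There were 3 libraries of wildtype cells and 3 of DEGS1 knockout cells, all untreated and collected 24 h after passage, and the labels do not say how many knockout clones were used. DEGS1 encodes the desaturase that makes ceramide from dihydroceramide.

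The label of long noncoding RNA did not hold for most members. Against RefSeq and GENCODE release 29, 19 of the 20 could be matched, 4 by their own symbol and 15 through a newer symbol. Both annotations give 13 of the 19 as protein-coding genes. The other 6 are RefSeq long noncoding RNAs, and GENCODE types all 6 as transcribed pseudogenes. Over all 38 rows, GENCODE gives 21 as protein-coding, 13 as pseudogenes and 1 as a long intergenic RNA, and 3 were not matched. The members are therefore called LINC-named loci here. Of the 35238 rows of the table, RefSeq gives 139 as long noncoding RNAs, 19073 as protein-coding and 7717 as pseudogenes. A further 7931 rows were left unmatched to RefSeq and have no type here. The types above thus describe the rows that this table holds, and not LINC loci expressed in HAP1 at large.

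A LINC symbol is provisional. It is replaced when a function, a neighbour or a translated reading frame gives a better name, and several LINC loci have become small-protein genes. Small proteins of this kind are often single-pass membrane proteins of the mitochondrion or the endoplasmic reticulum, or short partners of larger complexes. Transcripts without a reading frame can instead act in the nucleus, host small nucleolar RNAs, or be relics of duplicated genes.

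Among the 13 protein-coding members, 10 have a complete GENCODE coding sequence under 100 codons. LINC00998 is now SMIM30, a small membrane protein of 59 codons. LINC00493 is SMIM26, a mitochondrial microprotein with coding sequences of 73 to 95 codons. LINC00116 is MTLN, or mitoregulin, a microprotein of the inner mitochondrial membrane with coding sequences of 56 to 138 codons. LINC01420 is NBDY, a 68-codon partner of the mRNA decapping machinery in P-bodies. LINC01207 is SMIM31 with 71 codons, LINC01314 is CTXND1 with 59 codons, and LINC00672 is LASP1NB with 25 codons. LINC00371, now C13orf42, has the longest reading frame of the members at 325 codons.

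The sequence upstream of the start is shown for LINC00371, the member that passed the test of change, and for the 3 small-protein loci with the highest length-scaled levels. Each is the 250 bases before the RefSeq start on GRCh38.p14, on the gene's strand. They are chr13:51111275-51111524 (minus) for LINC00371, chr7:113118555-113118804 (minus) for LINC00998, chr20:18567182-18567431 (plus) for LINC00493 and chrX:56728993-56729242 (plus) for LINC01420. Capitals mark exact matches on either strand to 1 of 5 motifs. These were the TATA box as TATAAA, the CCAAT box, the GC box as GGGCGG, an ETS site as CCGGAAG, and the palindromic NRF1 core.
LINC00371: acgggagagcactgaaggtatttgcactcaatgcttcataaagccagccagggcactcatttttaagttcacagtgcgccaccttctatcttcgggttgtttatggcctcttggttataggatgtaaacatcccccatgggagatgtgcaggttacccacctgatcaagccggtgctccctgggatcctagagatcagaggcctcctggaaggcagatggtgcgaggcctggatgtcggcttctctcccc
LINC00998: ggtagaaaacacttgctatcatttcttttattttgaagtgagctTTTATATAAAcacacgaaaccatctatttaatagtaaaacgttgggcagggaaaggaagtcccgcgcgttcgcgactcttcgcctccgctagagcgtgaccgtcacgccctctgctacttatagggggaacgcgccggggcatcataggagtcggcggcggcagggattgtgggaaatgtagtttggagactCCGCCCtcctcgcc
LINC00493: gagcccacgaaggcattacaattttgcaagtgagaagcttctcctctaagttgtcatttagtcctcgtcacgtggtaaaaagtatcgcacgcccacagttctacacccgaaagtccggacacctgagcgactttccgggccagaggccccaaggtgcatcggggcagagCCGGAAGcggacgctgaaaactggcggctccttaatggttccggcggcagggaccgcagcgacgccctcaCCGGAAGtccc
LINC01420: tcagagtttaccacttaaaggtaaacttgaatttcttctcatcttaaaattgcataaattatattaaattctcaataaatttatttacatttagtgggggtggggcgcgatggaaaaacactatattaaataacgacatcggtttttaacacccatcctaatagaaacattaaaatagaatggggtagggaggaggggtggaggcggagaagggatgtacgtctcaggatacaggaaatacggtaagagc

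None of the 5 motifs occurs in the windows of LINC00371 and LINC01420. The LINC00998 window holds 2 TATAAA matches, 1 on each strand and overlapping, and 1 GC box, and the LINC00493 window holds 2 ETS matches. Over 27305 RefSeq promoters, windows of this length hold the TATA box in 11.1%, the CCAAT box in 33%, the GC box in 42.3%, the ETS site in 8.82% and the NRF1 core in 1.13%. The LINC00371 window holds 6 CpG dinucleotides and that of LINC01420 7, against 20 each for LINC00998 and LINC00493 and a median of 11 over all promoters. Promoters were found for 16 members. In the first window of each, the TATA box occurs in 2 members, the CCAAT box in 5, the GC box in 6, the ETS site in 1 and the NRF1 core in 0.

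Library totals ran from 17322756 to 28988522 counts. DEGS1 stood at 108 ± 13.8 CPM in wildtype and 8.93 ± 1.84 CPM in knockout libraries (SD, n = 3 each). CPM is the count divided by the TMM-scaled library size, brought to a common library total. Of the blood markers, SPI1 and MPO had 0 counts in every library and PTPRC averaged 3.11 and 2.36 CPM in wildtype and knockout. The summed level of the 9 blood markers was 46.1 to 47.2 CPM in wildtype and 59.1 to 69.7 CPM in knockout libraries. Of its 5 tested genes TAL1 was called higher and HCLS1 lower. Of 5 tested epithelial markers 2 were called lower (CLDN1 and EPCAM). KRT18, at 51.1 and 70.8 CPM, and KRT8, at 12.9 and 14.9 CPM, were higher in the knockout and not called. CDH1, at 3.84 and 3.34 CPM, was lower and not called. The epithelial list summed to 74.2 to 83.3 CPM in wildtype and 69.4 to 103 CPM in knockout, with KRT19 at 0. Of 4 neuronal markers 2 were called higher (MAP2 and SNAP25), with list sums of 155 to 165 and 184 to 199 CPM. TUBB3, at 131 and 118 CPM, and RBFOX3, at 2.74 and 2.21 CPM, were lower in the knockout and not called. Of 4 pluripotency markers 1 was called higher (LIN28B), with sums of 442 to 525 and 470 to 619 CPM. The others were not called and went both ways. In wildtype and knockout, LIN28A averaged 21.7 and 125 CPM, POU5F1 333 and 240 CPM, and NANOG 5.31 and 4.46 CPM. Of 3 tested fibroblast markers 0 were called in edgeR, 0 had an unadjusted p under 0.05, and LUM was at 0, with sums of 5.83 to 11 and 8.75 to 10.9 CPM. The part of these other-lineage genes in the members' values was not tested.

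The members spanned a wide range of levels. LINC01296 was the highest at 71.9 CPM over the 6 libraries and LINC01314 the lowest at 0.706 CPM. The median member lay at the 35th percentile of the 16954 tested genes by mean CPM. Tested protein-coding genes had a median of 24.5 CPM and tested pseudogenes one of 1.07 CPM.

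**Figure D1:**
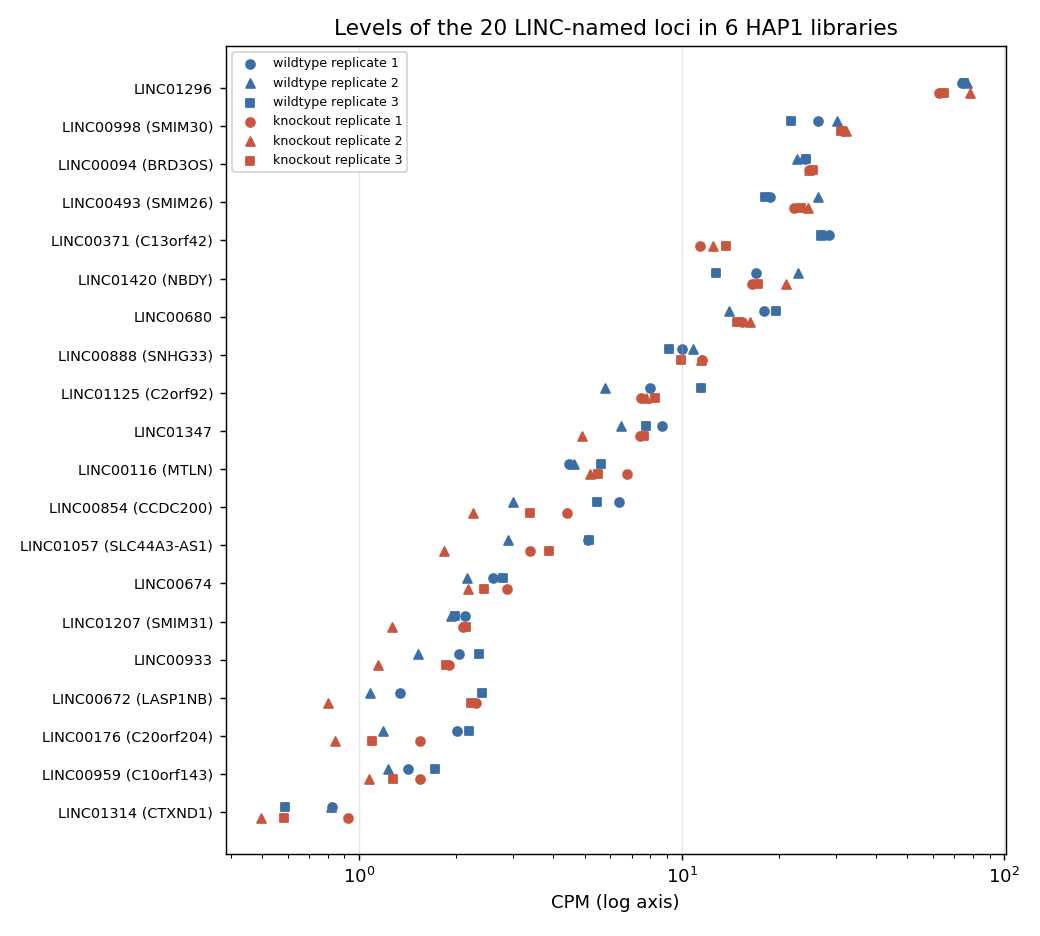
CPM on a log axis for each of the 20 members, ordered by mean level, with 1 point per library (blue wildtype, red knockout, symbol by replicate number). Levels run from below 1 CPM for LINC01314 to 71.9 CPM for LINC01296, and LINC00371 is the member whose genotypes stand widest apart.

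Scaled by the longest GENCODE 29 transcript, the order changed. LINC00493, with a transcript of 670 nt, stood highest at 33.3 CPM per kb (27.1 to 39.5 over the 6 libraries), and LINC00998 followed at 27.1 (20.4 to 30.1). The ranges of these 2 overlapped. LINC01420 came next at 11.7 CPM per kb (8.37 to 15), below all LINC00998 values. LINC00888, now SNHG33, a host of a small nucleolar RNA, followed at 7.04 (6.11 to 7.75), and its range did not reach that of LINC01420. From LINC00888 down to LINC01347 at 1.86 CPM per kb each neighbour in the order overlapped the next. LINC01347 lay above LINC00933 at 0.693 CPM per kb without overlap, and LINC01314 was last at 0.102. LINC01296 has no length here.

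1 of the 20 members passed the test of change, and it fell. All 20 passed the filter on low counts. In the quasi-likelihood test of edgeR, adjusted by Benjamini-Hochberg over all tested genes, 4.46% of the 16954 genes were called, 2.95% as lower and 1.51% as higher in the knockout. The members' count of 1 was therefore near the background. An unadjusted p under 0.05 was reached by 1 member, against 16.5% of all tested genes. The log2 fold change was positive in 7 members and negative in 13, against 52.7% negative over all tested genes, with a median of -0.13 against -0.02 over all tested genes.

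**Figure D2:**
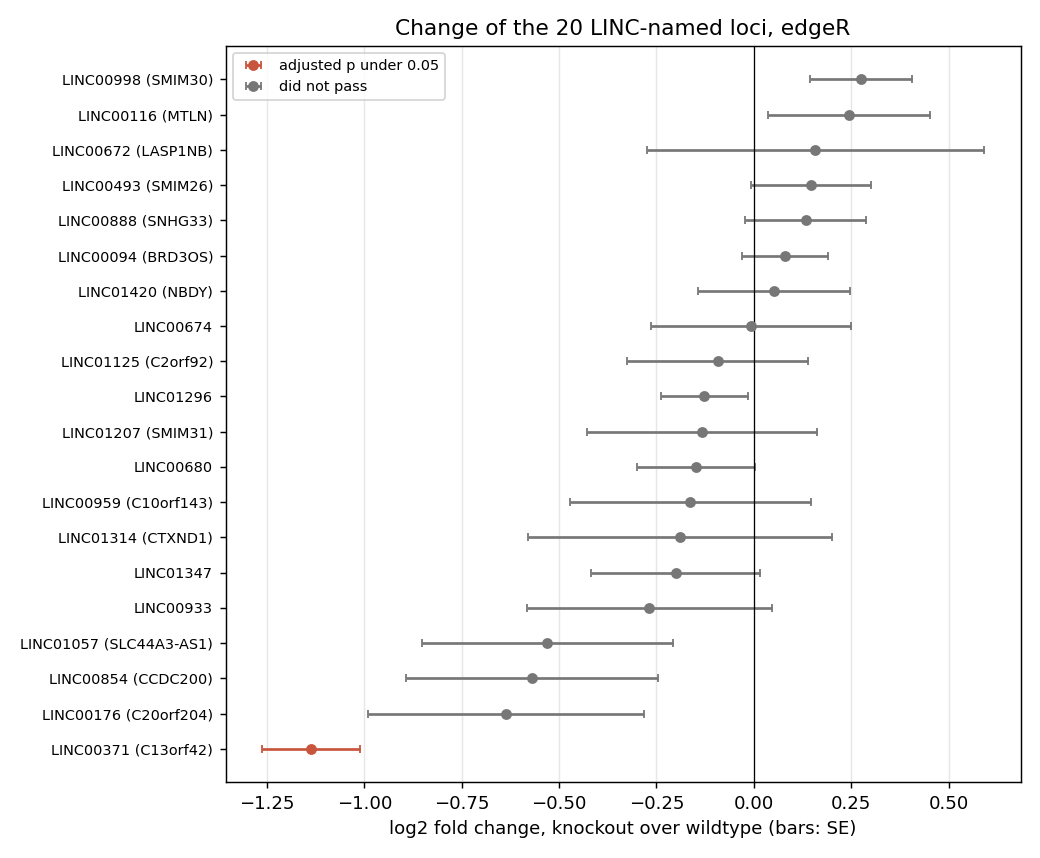
Log2 fold change of knockout over wildtype for the 20 members, with its standard error as bars, red where the edgeR adjusted p is under 0.05. LINC00371 at -1.14 is the only red point, and the other members lie within 0.64 of 0.

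LINC00371 (C13orf42) encodes a protein without a described role known here. Wildtype libraries held it at 28.6, 27 and 27.1 CPM, knockout libraries at 11.4, 12.5 and 13.7 CPM. Every knockout library lay below every wildtype library. The mean fell from 27.6 ± 0.906 to 12.5 ± 1.14 CPM (SD, n = 3 each), leaving 45.4% of the wildtype level. On the log2 scale this was a change of -1.14 with SE 0.13 (edgeR adjusted p = 0.000259). By p-value it ranked 91st among all tested genes and 2nd among those of chromosome 13. It was called in each of 16 other settings, with log2 fold changes from -1.20 to -0.79.

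LINC00371 is a gene of chromosome 13, where most genes had lower values in the knockout. Of 293 tested genes there, 270 had a negative log2 fold change, the median was -0.34, and 34 were called lower and 0 higher. LINC00371 fell by more than that median, and 16 of the 293 genes had a lower log2 fold change. With the median of each chromosome removed from each library, LINC00371 kept a log2 fold change of -0.79 (edgeR adjusted p = 0.00372).

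The 10 nearest tested protein-coding genes, 5 on each side in the RefSeq order, were all negative, with log2 fold changes from -0.99 to -0.30. FAM124A, the nearest on one side, went from 41 ± 1.3 to 27.7 ± 1.59 CPM (a log2 change of -0.56 with SE 0.10, edgeR adjusted p = 0.00862). RNASEH2B, a subunit of the ribonuclease that removes ribonucleotides from DNA and the nearest on the other side, went from 70.2 ± 4.86 to 55.8 ± 4.02 CPM and did not pass (-0.33, SE 0.11, edgeR adjusted p = 0.124). TRIM13, a ubiquitin ligase, and WDFY2, an endosomal protein, were also called, at -0.42 and -0.49 (edgeR adjusted p = 0.0392 and 0.034). LINC00371 had the most negative log2 fold change of the 11 genes, but its difference from the neighbours was not tested. RPL5P31, a ribosomal protein pseudogene inside the C13orf42 locus on the same strand, had 1.11 CPM and did not pass (-1.70, edgeR adjusted p = 0.137).

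**Figure D3:**
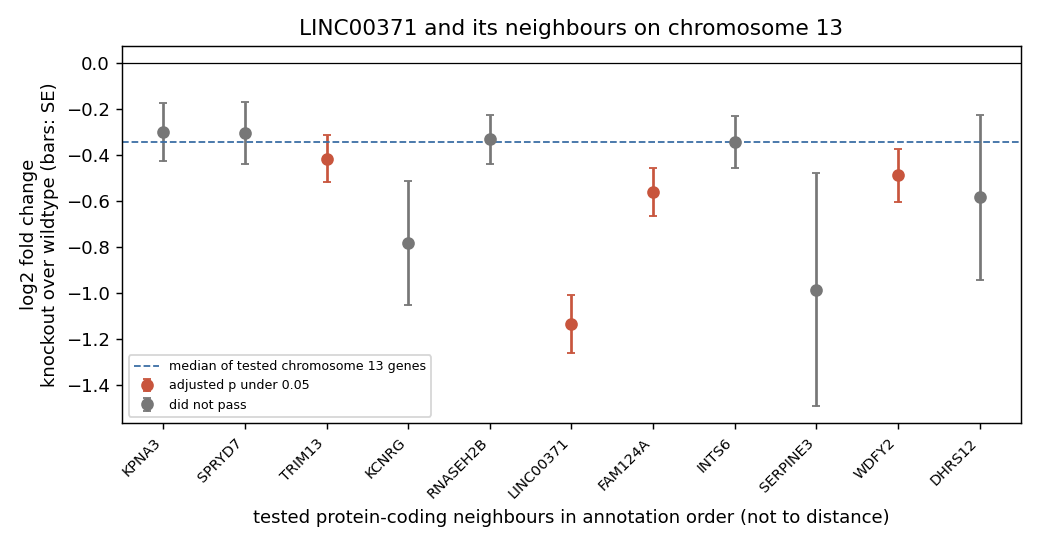
Log2 fold change (points, SE as bars) of LINC00371 and its 10 nearest tested protein-coding genes in annotation order, with the median of all tested chromosome 13 genes as a dashed line at -0.34. All 11 values are below 0, and LINC00371 is the lowest at -1.14.

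The small-protein loci did not pass the test. Of the 10 members with a coding sequence under 100 codons, 6 had a positive and 4 a negative log2 fold change. Some of them also have longer coding sequences, such as LINC01125 (38 to 265 codons) and LINC00959 (40 to 140 codons). On the list of loci with small-protein names, the 4 members (LINC00998, LINC00493, LINC01420 and LINC00116) were all positive, with a median of 0.20. LINC01207 (SMIM31), which is not on that list, was negative at -0.13. LINC00998 (SMIM30) stood at 26.4, 30.3 and 21.9 CPM in wildtype and 31.7, 32.2 and 31.2 CPM in the knockout. The knockout libraries all lay above the wildtype ones, which were the more spread (a log2 change of 0.28 with SE 0.13, edgeR adjusted p = 0.321). Without wildtype replicate 2, when 22.1% of all tested genes were called, LINC00998 passed at 0.40 (edgeR adjusted p = 0.0274).

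LINC00493 (SMIM26) stood at 18.8, 26.5 and 18.2 CPM in wildtype and 22.3, 24.7 and 23.4 CPM in the knockout, so the groups overlapped (a log2 change of 0.15 with SE 0.15, edgeR adjusted p = 0.68). LINC01420 (NBDY) stood at 17, 22.9 and 12.8 CPM against 16.6, 21 and 17.2 CPM (0.05, SE 0.19, edgeR adjusted p = 0.919), and the wildtype libraries enclosed all 3 knockout values. LINC00116 (MTLN) stood at 4.48, 4.64 and 5.62 CPM against 6.77, 5.2 and 5.5 CPM (0.24, SE 0.21, edgeR adjusted p = 0.603). Here the highest wildtype library reached into the knockout range. LINC00961 (SPAAR), another small-protein gene, had 34 counts and was neither a member nor tested.

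LINC00094 (BRD3OS) runs opposite to BRD3, a bromodomain gene whose product binds acetylated histones. It varied little, at 24.1, 22.8 and 24.3 CPM in wildtype and 24.9, 24.8 and 25.5 CPM in the knockout. The groups did not overlap, and the log2 change was 0.08 with SE 0.11 (edgeR adjusted p = 0.759). BRD3 itself went from 56.7 to 41.6 CPM and did not pass (log2 fold change -0.44, edgeR adjusted p = 0.0617). LINC00371, LINC00998 and LINC00094 were the 3 of 20 members whose groups did not overlap, against 20.8% of all tested genes.

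Of the other protein-coding members, LINC00176 (C20orf204) and LINC00854 (CCDC200, a coiled-coil protein by name) had the widest differences. LINC00176 stood at 2, 1.19 and 2.2 CPM in wildtype and 1.54, 0.841 and 1.09 CPM in the knockout (a log2 change of -0.64 with SE 0.35, edgeR adjusted p = 0.409). LINC00854 stood at 6.41, 3.01 and 5.46 CPM against 4.41, 2.26 and 3.39 CPM (-0.57, SE 0.32, edgeR adjusted p = 0.418). In both, wildtype replicate 2 lay within the knockout range. Without that library, when 22.1% of all tested genes were called, LINC00854 passed at -0.83 (edgeR adjusted p = 0.0374). LINC00176 did not (-0.87, edgeR adjusted p = 0.0597).

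LINC01125 (C2orf92) averaged 8.41 ± 2.86 CPM in wildtype and 7.84 ± 0.398 CPM in the knockout. LINC01207 (SMIM31), LINC00672 (LASP1NB), LINC00959 (C10orf143) and LINC01314 (CTXND1) stood between 0.668 and 2.01 CPM in each genotype's mean. None of these 5 passed, with edgeR adjusted p-values from 0.83 to 0.885. Their standard errors ran from 0.23 for LINC01125 to 0.43 for LINC00672, whose libraries were widely spread in both genotypes.

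The 6 noncoding members did not pass either. LINC00680 stood at 18, 14 and 19.7 CPM in wildtype and 15.4, 16.3 and 14.8 CPM in the knockout (a log2 change of -0.15 with SE 0.15, edgeR adjusted p = 0.668). LINC00888 (SNHG33) stood at 10, 10.8 and 9.11 CPM against 11.5, 11.5 and 9.91 CPM (0.13, SE 0.16, edgeR adjusted p = 0.714). LINC01347 averaged 7.65 and 6.66 CPM, LINC00674 2.51 and 2.5 CPM, and LINC00933 1.97 and 1.63 CPM in wildtype and knockout. LINC01057, now SLC44A3-AS1, lies opposite the choline transporter-like gene SLC44A3. It stood at 5.11, 2.9 and 5.14 CPM in wildtype and 3.39, 1.84 and 3.86 CPM in the knockout (-0.53, SE 0.32, edgeR adjusted p = 0.454). Their log2 fold changes were negative in 5 of 6, with a median of -0.17, and the median over all 1194 tested pseudogenes was -0.20, of which 1.93% were called.

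LINC01296, the member with the most counts, is listed by RefSeq as an older name of DUXAP9, a homeobox pseudogene with close copies, but DUXAP9 has its own row. Reads may have been split between the rows, so both values are uncertain. LINC01296 stood at 73.8, 76.6 and 74.9 CPM in wildtype and 62.8, 78.3 and 65 CPM in the knockout, where 2 of 3 libraries lay below all wildtype ones (a log2 change of -0.13 with SE 0.11, edgeR adjusted p = 0.615). DUXAP9 averaged 32.4 ± 4.84 and 27.9 ± 2.9 CPM. The same limit holds for the 6 members typed as pseudogenes, whose reads a related gene may share.

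Replicate 2 was often the extreme library of both genotypes, in the members as in all tested genes. In 10 of 20 members replicate 2 was the lowest library in both genotypes, a larger share than the 25.3% of all tested genes. In 4 members, LINC00493, LINC00998, LINC01420 and LINC01296, replicate 2 was the highest in both, as in 24.2% of all genes. LINC00672 had the widest knockout deviation, with 0.803 CPM in replicate 2 against 2.31 and 2.22 CPM. Wildtype and knockout libraries of the same number carry a common code in their descriptions, and the labels do not say what it stands for.

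**Figure D4:**
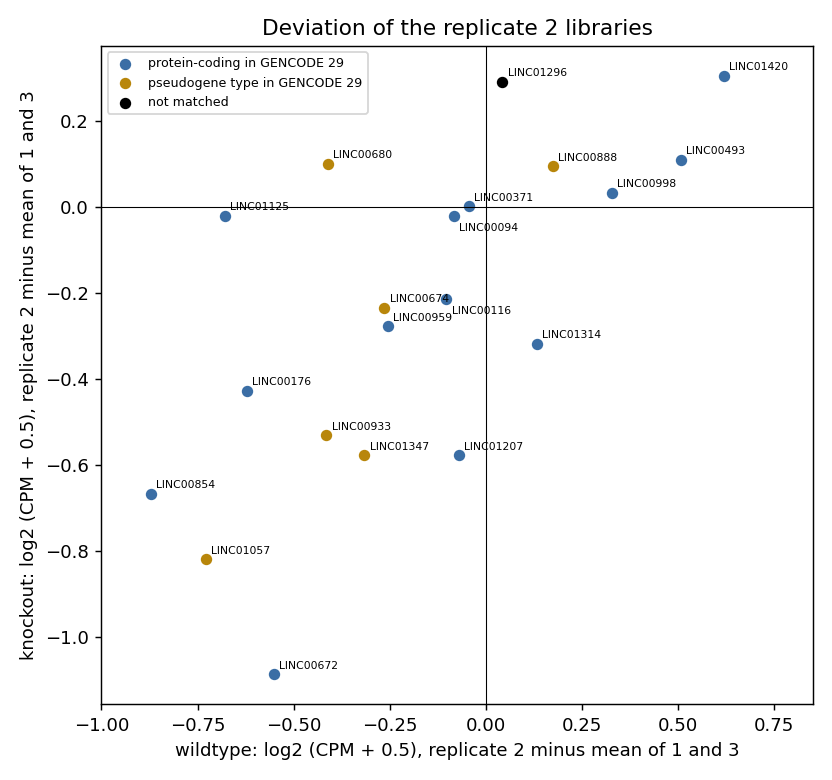
Deviation of replicate 2 from the mean of replicates 1 and 3, on the log2 (CPM + 0.5) scale, in wildtype (x) and knockout (y), 1 point per member, coloured by GENCODE 29 type. LINC00493, LINC00998 and LINC01420 lie at the upper right and LINC00854, LINC01057 and LINC00672 at the lower left.

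Around the 19 matched members, the nearest tested protein-coding gene on each side gave 38 genes, of which 2 were called, against the background of 4.46%. These were FAM124A beside LINC00371 and APELA beside LINC01207, the latter named after its values were seen. APELA, which encodes a peptide ligand of the apelin receptor, fell from 11.5 to 4.42 CPM (a log2 change of -1.38 with SE 0.19, edgeR adjusted p = 0.00112), while LINC01207 itself stood at 2.01 ± 0.0993 and 1.84 ± 0.5 CPM (-0.13, SE 0.30, edgeR adjusted p = 0.856). In GENCODE 7 members overlap another gene of the table on the opposite strand, among them BRD3 for LINC00094, SLC44A3 for LINC01057 and SPIN3 for LINC01420. The kit keeps strand, but the strand setting of the counting was not stated in any source used here. Whether the reads of such a pair were told apart is therefore not known.

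At the threshold, LINC01314 had 101 counts, LINC00959 194 and LINC00176 206, and just outside it LINC00643 had 92, LINC00431 89 and LINC00238 81. LINC01314, with 54 wildtype and 47 knockout counts, was the 1 member in which the counts of the lower genotype, taken 2 times, stayed under 100. Of the 18 rows outside, 3 were tested and 4 had no count.

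Few other noncoding RNAs could be set beside the members. Of 47 well-known long noncoding RNAs outside the LINC names, 2 were in the table and tested. DLEU1, a long noncoding RNA of chromosome 13, fell from 36.2 to 24.2 CPM (a log2 change of -0.58 with SE 0.11, edgeR adjusted p = 0.0121), and TUNAR, now annotated with a 48-codon reading frame, stood at 15.2 and 12.4 CPM (-0.29, edgeR adjusted p = 0.355). Of 8 tested antisense-named genes none passed edgeR's test and none had an unadjusted p under 0.05, against 4.46% and 16.5% of all tested genes. EMC3-AS1 had the smallest p of them (-0.32, SE 0.16, edgeR adjusted p = 0.345). RefSeq gives EMC3-AS1 as a long noncoding RNA but most of these 8 as protein-coding genes, among them FAM83H-AS1 (IQANK1) and TOPORS-AS1 (SMIM27). They are therefore not a set of noncoding RNAs. None of 31 LINC loci listed for described functions, and no small nucleolar or microRNA host gene by name pattern, was among the rows used. Of 29 tested genes that process, retain or degrade such RNAs, 0 passed edgeR's test and 2 had an unadjusted p under 0.05. The shares over all tested genes were 4.46% and 16.5%. INTS6, an Integrator subunit and itself a neighbour of LINC00371, had the smallest p (-0.34, SE 0.11, edgeR adjusted p = 0.128).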

How the data were processed

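RNA was sequenced from 3 wildtype and 3 DEGS1 knockout libraries of HAP1 cells with a stranded total RNA kit and single reads, per the labels' protocols. The authors deposited 1 table of raw counts with a gene symbol on each row and a column for each library. Per the submitters' processing notes, bcl2fastq 2.20 and hg19 were used. Which aligner, counter, annotation and strand setting made the counts is not given in the sources used here.

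The function filterByExpr of edgeR 4.0.16 (R 4.3.3) removed low rows. TMM scaling and a robust quasi-likelihood F test on genotype followed. Calls needed an adjusted p (Benjamini-Hochberg, over all 16954 tested genes) under 0.05. Dividing the size of the log2 fold change by the root of F gave its standard error. DESeq2 1.42.0 and limma 3.58.1 served as alternatives. The fit was tested on simulated data. It recovered 35.2% of 1.5-fold, 65.7% of 2-fold and 96.8% of 4-fold changes, with 14 false calls among 16688 genes. A member that did not pass may therefore still have changed moderately.

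Symbols were matched to RefSeq (GRCh38.p14) and GENCODE 29, another build than the authors', for names, types, transcript length, promoters and neighbour order. A newer symbol that had its own row was not used, which left 1 member unmatched.

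The members and lists were chosen with earlier results of these data known. Named were the called member and its nearest neighbours, the most abundant members, the uncalled ones with separate groups, the members of the lists, those at the count threshold, and called or smallest-p genes of other lists. Others were named to account for every member.

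Nothing says that replicates were separate cultures, and the spread behind each p-value is that of these libraries and may be technical. Same-numbered libraries were not taken as pairs in the main fit, since the labels give no batch term, and a replicate block served as an alternative. Deviations of same-numbered libraries correlated at 0.26, 0.41 and -0.23 across 10461 genes. Those of differently numbered libraries ran from -0.56 (wildtype 2 with knockout 1) to 0.59 (wildtype 3 with knockout 1). A count of 3 corresponds to 0.109 to 0.161 CPM.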

Additional observations from a re-analysis of the deposited data

How the results depend on the processing

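Each member was refitted in 16 other settings: scaling by DESeq2 size factors, by upper quartiles or by library size alone, limma voom, a Wald test in DESeq2, no filter, 1 CPM in 3 libraries, a replicate block, removal of a length and GC trend, removal of chromosome medians, and each library left out. Of 319 refitted values, 302 kept direction and side of the threshold. No member was called higher and 1 lower in each setting but the one without wildtype replicate 2, with 1 higher (LINC00998) and 2 lower (LINC00371 and LINC00854), so leaving out 1 library gave 0 to 1 higher and 1 to 2 lower. Without that library 3825 of all genes were called, against 756. LINC00371 was called in all 16. With the replicate block, 0 members were called higher and 1 lower, LINC00371 again at -1.14, and 1082 of all genes were called.

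The sign of the log2 fold change turned in 15 uncalled values of 5 members. LINC00674 was 0.00834 with DESeq2 size factors, 0.00826 with the Wald test and 0.00195 with no filter, and ran from -0.106 to 0.0858 with 1 library left out. LINC01125 was 0.000605 with limma voom and ran from -0.296 to 0.19 with 1 library left out. The same ranges were -0.0598 to 0.551 for LINC00672, -0.127 to 0.295 for LINC01420 and -0.265 to 0.0843 for LINC01207. The cause was not tested. With the length and GC trend removed, 45.8% of all calls were higher against 33.9%. A lower count threshold gave 23 members and a higher one 18. LINC01314 was not tested with the filter of 1 CPM in 3 libraries. Members under about 2 CPM had standard errors of 0.30 to 0.43. LINC00854 at 4.16 CPM and LINC01057 at 3.71 CPM also had standard errors of 0.32. What part of this is depth was not tested.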

Other observations

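LINC00633, now ETDB, did not meet the count threshold and was seen in 1 wildtype library. It had 12 counts in wildtype replicate 1, 0 in the other two wildtype libraries, and 0, 1 and 0 counts in the knockout libraries. The row was singled out after its values were seen and was not tested.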
